A study of Mus musculus with 4 samples.

Results

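ILC1-like cells were described in single-cell RNA sequencing of CD45+ cells sorted from MC38 tumors, a colon carcinoma line of C57BL/6 origin. They were chosen cell by cell from unique molecular identifiers (UMIs), each of which stands for 1 captured probe molecule. A cell had to have at least 500 detected genes, at most 10% mitochondrial UMIs and at least 2 UMIs of the NK receptor genes Ncr1 and Klrb1c together. It could have at most 2 UMIs of Cd3d, Cd3e and Cd3g, which mark T cells, and under 0.2% of its UMIs could come from the macrophage genes C1qa, C1qb, C1qc and Csf1r. Of 28194 cells that passed the cell filters 1245 met these limits, and 557 of the 1245 had at least 1 UMI of Itga1 or Cd200r1 and were called ILC1-like. Among the 557, 202 cells had no UMI of Eomes (Eomes-negative) and 355 had at least 1 (Eomes-positive), and these were kept apart. The 503 cells with an Eomes UMI but none of Itga1 or Cd200r1 served as conventional NK cells.

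The mice were B-hCTLA-4 mice on a C57BL/6 background, which carry a human CTLA-4 gene, and this held for all 4 groups. Each received MC38 cells under the skin and 3 intraperitoneal treatments from a tumor size of about 100 mm3, and tumors were taken on day 8 after the start of treatment. The isotype control group received hIgG1 (10 mg/kg). The combination group received ipilimumab, a human IgG1 against human CTLA-4 (10 mg/kg), with AT130-2 mIgG1-N297A, an antibody against mouse FcγRII with a mutated Fc part (20 mg/kg). The other 2 groups received 1 of these antibodies each, but their labels contradict each other: the library titled anti-human CTLA-4 has anti-mouse FcgRII as its treatment, and the reverse holds for the other library. They are therefore called single antibody A (titled anti-human CTLA-4) and single antibody B (titled anti-mouse FcgRII), and no direction below rests on which antibody each received. Tumors of 11 mice per group were pooled into 1 library, so that no group had replicates. The article gives other doses, mouse numbers and a different day for its single-cell experiment, and the labels were followed here. The libraries of isotype control, single antibody A, single antibody B and combination held 8173, 6390, 6097 and 7630 cells and 178178393, 129151823, 142472286 and 196362818 UMIs.

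ILC1s are innate lymphocytes that stay in tissues and, like NK cells, depend on T-bet and make interferon-γ. NK cells circulate, require Eomes and kill with perforin and granzymes, whereas tissue ILC1s carry the collagen-binding integrin CD49a (Itga1), the inhibitory receptor CD200R1 and CXCR6. In tumors, NK cells can take on CD49a while they keep Eomes, so that Eomes is used to part the populations.

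Levels are given as UMIs of a gene per 1000000 UMIs (CPM), summed over the cells of a population in a library. Each run of 4 values follows the order isotype control, single antibody A, single antibody B and combination. The isotype control library held 40 Eomes-negative and 72 Eomes-positive ILC1-like cells, single antibody A 61 and 109, single antibody B 28 and 64, and combination 73 and 110. ILC1-like cells were read more deeply than conventional NK cells. The median was 7986.5 UMIs per Eomes-negative cell and 9519 per Eomes-positive cell against 3814 per conventional NK cell, and a deeper cell is more likely to show an Itga1, Cd200r1 or Eomes UMI. By library the medians were 6381.5, 6238, 8518 and 9565 UMIs in Eomes-negative, 9080, 7299, 7035.5 and 13602 in Eomes-positive and 3670, 3746.5, 3745 and 4093 in conventional NK cells. No cell barcode was shared by libraries in full, while 4461 of 23366 barcode starts (the first 16 bases) occurred in more than 1 library (19.1%).

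The selecting genes and the label markers were compared first, as a description and with no test. Itga1 (chr13:114953096-115101964, GRCm38, minus strand) gave most of the choice: 410 cells had Itga1 alone, 36 Cd200r1 alone and 111 both. Of the cells with both genes 57.7% were Eomes-negative, against 29.3% of the cells with Itga1 alone. Itga1 stood at 370, 331, 317 and 319 CPM in Eomes-negative and 305, 240, 288 and 339 CPM in Eomes-positive cells. Cd200r1 (chr16:44765736-44794978, plus strand) stood at 71.3, 149, 105 and 148 CPM in Eomes-negative and 26.3, 31.7, 29.3 and 27.5 CPM in Eomes-positive cells, with no overlap. Itga1 was thus near the same level in both, while Cd200r1 was higher in Eomes-negative cells in all 4 libraries. Both genes were used by the rule, so that these levels follow in part from the choice of cells. At the limit itself, 161 cells had exactly 1 UMI of the gene pair and 396 had 2 or more, while 688 gated cells had none. At the other limits 16 cells had exactly 2 UMIs of Ncr1 and Klrb1c and 29 cells that met the rest of the rule had 1, 10 had 2 Cd3 UMIs and 4 outside had 3, and 34 held 0.1 to 0.2% of macrophage UMIs and 13 outside held 0.2 to 0.3%. The last limit left out more cells than were kept, since 582 cells that met the rest of the rule held 0.2% or more.

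Cxcr6 and Krt83, label markers that the rule did not use, went with both populations to different degrees. Cxcr6, a chemokine receptor of tissue-resident lymphocytes, stood at 238, 356, 216 and 335 CPM in Eomes-negative cells, 85.9, 86.6, 94.0 and 118 CPM in Eomes-positive cells and 26.5, 1.43, 24.5 and 37.3 CPM in conventional NK cells. The 3 populations did not overlap in Cxcr6. Krt83, a keratin gene used as an ILC1 marker, stood at 95.1, 109, 74.7 and 74.2 CPM in Eomes-negative, 27.7, 12.1, 49.3 and 32.7 CPM in Eomes-positive and 12.4, 8.56, 21.4 and 18.6 CPM in conventional NK cells. Eomes-positive and conventional NK cells overlapped in Krt83. Ncr1, the receptor NKp46 shared by NK cells and ILC1s, stood at 1247, 1099, 959 and 797 CPM in Eomes-negative, 901, 943, 1103 and 857 CPM in Eomes-positive and 1306, 1320, 1354 and 1047 CPM in conventional NK cells. Eomes itself, which parted the populations, stood at 365, 382, 359 and 285 CPM in Eomes-positive and 591, 619, 539 and 607 CPM in conventional NK cells. The rule used Ncr1 and Eomes, and a required UMI is a larger share of a shallower cell. Their levels in these populations thus follow in part from the choice of cells. The Eomes-negative cells thus had both label markers outside the rule above every conventional NK sum, and the Eomes-positive cells had Cxcr6 above it and Krt83 within its range in part.

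Cd200r1 is no marker of ILC1s alone in these tumors. At full depth 54.4% of 10861 macrophages (cells with 1% or more of UMIs from the 4 macrophage genes, median 21885 UMIs) had a Cd200r1 UMI, against 11.8% of the 1245 gated cells (median 4847 UMIs). Drawn down to 2259 UMIs a cell, the shares were 10.7% of 3000 macrophages taken at random and 5.80% of 1120 gated cells. Itga1 and Eomes behaved otherwise at that depth, with Itga1 in 25.6% of gated cells and 0.657% of macrophages and Eomes in 48.5% and 0.0567%. The 18 Eomes-positive cells chosen by Cd200r1 alone held 17771 CPM of 16 macrophage genes in sum, against 4520 CPM in the 337 Eomes-positive cells with Itga1. In Eomes-negative cells the sums were 7126 CPM in the 18 cells chosen by Cd200r1 alone and 3314 CPM in the 184 cells with Itga1, and in conventional NK cells 1656 CPM. The medians per cell lay closer together than these sums, at 947 CPM in the 337 Eomes-positive and 780 CPM in the 184 Eomes-negative cells with Itga1 and 765 CPM in conventional NK cells, while the cells chosen by Cd200r1 alone had medians of 12104 CPM (Eomes-positive) and 1071 CPM (Eomes-negative).

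**Figure D1:**
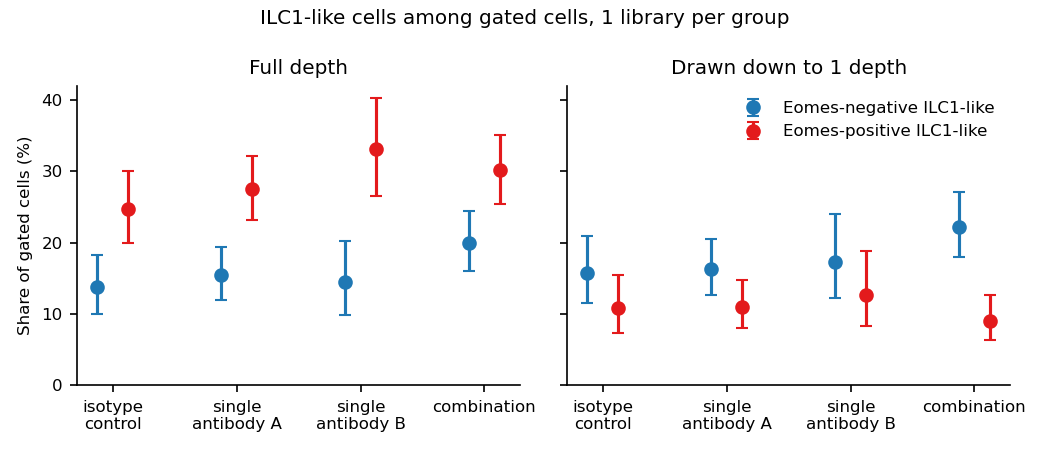
Share of gated cells (%) that were Eomes-negative (blue) or Eomes-positive (red) ILC1-like cells in the 4 libraries, at full depth (left) and with every cell drawn down to 2259 UMIs (right). Points are shares and bars exact 95% binomial intervals, which cover counting error only. At full depth the red points lie above the blue ones in every library, and at equal depth below them.

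Eomes-negative cells took their highest share of gated cells with the combination and Eomes-positive cells theirs with single antibody B. The second ranking changed with the setting. With at least 2 UMIs of Itga1 and Cd200r1 the Eomes-positive share was highest with the combination (24.4%, against 22.3% with B). Of all cells that passed the filters it was highest with single antibody A (1.71%, against 1.05% with B). Eomes-negative cells made up 13.7, 15.4, 14.5 and 20.0% of gated cells, with a ratio of combination to isotype control of 1.46 (95% interval 1.02 to 2.07, counting error only). Eomes-positive cells made up 24.7, 27.5, 33.2 and 30.1%, with a ratio of 1.22 (0.945 to 1.57). Both together made up 38.5, 42.9, 47.7 and 50.1%, with a ratio of 1.30 (1.09 to 1.56), which was 1.17 (0.903 to 1.52) with every cell drawn down to 2259 UMIs. With every gated cell drawn down to 2259 UMIs, Eomes-negative cells made up 15.8, 16.3, 17.3 and 22.1% and Eomes-positive cells 10.8, 11.0, 12.7 and 9.02%, so that the order of the populations turned in every library and the split by Eomes depended on depth. At that depth the ratio was 1.40 (0.988 to 1.99) for Eomes-negative and 0.836 (0.511 to 1.37) for Eomes-positive cells, so that the direction of the second turned. Of all cells that passed the filters, the ratio of combination to isotype control was 1.96 (1.33 to 2.87) for Eomes-negative cells, and that of single antibody A was 1.95 (1.31 to 2.91). With 1 library per group these ratios compare 4 libraries and not treatments, and how many mice stood behind a share cannot be seen.

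Eomes-negative cells were compared with conventional NK cells within each library, by edgeR on summed UMIs with library as a block. Of 8422 genes tested 271 were higher (3.22%) and 247 lower (2.93%) at an adjusted p under 0.05. Of 12 ILC1 markers tested, 11 were higher and none lower, with a median log2 fold change of 2.23 against 0.01 over all genes. Of 15 markers of conventional NK cells, 11 were lower and none higher, with a median of -1.70. These lists were drawn up with results of these data known.

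Among the ILC1 markers the widest gaps were in Tmem176a, Il7r, Tmem176b and Zfp683. Tmem176b, which encodes a channel-like membrane protein, stood at 309, 283, 325 and 266 CPM in Eomes-negative and 24.7, 2.85, 67.4 and 31.1 CPM in conventional NK cells (log2 fold change 3.42 ± 0.39 (SE), edgeR adjusted p = 7.52e-05). Its neighbor Tmem176a stood at 214, 220, 287 and 156 CPM against 1.76, 0, 58.2 and 9.32 CPM (4.10 ± 0.54, adjusted p = 2.89e-04). Neither gene overlapped between the populations. The spans of Tmem176b (chr6:48833818-48841496, minus strand) and Tmem176a (chr6:48840919-48847071, plus strand) share 578 bases in the annotation, so that their values are not fully separate evidence. Zfp683, the transcription factor Hobit of tissue-resident lymphocytes (chr4:134053838-134058996), stood at 105, 136, 127 and 26.0 CPM against 3.53, 15.7, 15.3 and 6.21 CPM (3.16 ± 0.49, adjusted p = 0.00103). The combination library was the lowest of the 4 in Zfp683, yet above every conventional NK sum. Il7r, the α chain of the IL-7 receptor, stood at 47.6, 128, 112 and 134 CPM against 5.29, 7.13, 12.2 and 15.5 CPM (3.47 ± 0.55, adjusted p = 0.00117). All 4 Eomes-negative sums of Il7r were above all 4 of conventional NK cells.

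The other ILC1 markers called higher were Inpp4b, a phosphoinositide phosphatase (log2 fold change 2.59 ± 0.22, edgeR adjusted p = 1.90e-05), the transcription factor Helios (Ikzf2, 2.31), granzyme C (Gzmc, 2.14), the death ligand TRAIL (Tnfsf10, 1.93), lymphotoxin β (Ltb, 1.53), the receptor Cd160 (1.21) and the IL-21 receptor (Il21r, 0.87). Inpp4b stood at 414, 493, 384 and 348 CPM against 75.9, 47.1, 76.6 and 74.5 CPM, and Tnfsf10 at 323, 319, 340 and 257 against 90.0, 57.1, 88.8 and 87.0 CPM, with no overlap in either, while the values of Il21r overlapped. The remaining marker tested was the chemokine Xcl1 (3024, 1455, 1702 and 1176 CPM against 1996, 820, 916 and 1190 CPM, adjusted p = 0.273). By the size of the change, genes outside the list also led. Psd2, an exchange factor of ARF GTPases, stood at 74.7, 101, 63.5 and 44.3 CPM against 3.53, 1.43, 3.06 and 3.11 CPM (4.57 ± 0.80, adjusted p = 0.00235), Ly6g5b, a Ly6 family gene, at 54.4, 41.9, 70.9 and 39.1 against 3.53, 1.43, 0 and 4.66 CPM and Bmp7, a ligand of the TGF-β family, at 57.8, 25.2, 67.2 and 58.6 against 1.76, 5.71, 0 and 6.21 CPM. Tcrg-C4, a T cell receptor γ constant gene, stood at 323, 256, 224 and 257 CPM against 8.82, 1.43, 36.7 and 31.1 CPM (3.91), while Trdc, the δ constant gene, was lower at 112, 65.0, 18.7 and 18.2 against 251, 385, 269 and 219 CPM. Serpinb1a, an inhibitor of neutrophil proteases, was called at 4.22, but 73 of its UMIs in Eomes-negative cells came from 1 cell.

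**Figure D2:**
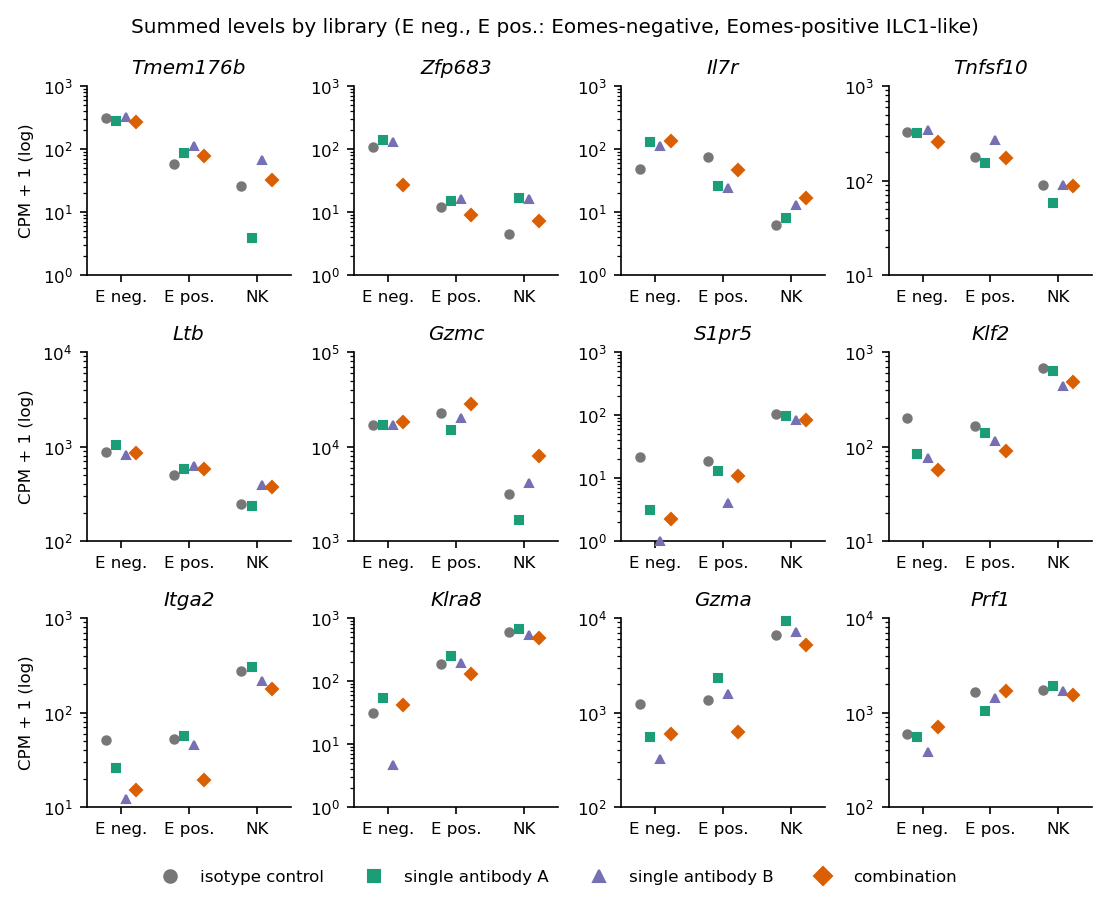
Levels (CPM plus 1, log axis) of 12 genes in Eomes-negative ILC1-like cells (E neg.), Eomes-positive ILC1-like cells (E pos.) and conventional NK cells (NK), 1 point per library. Tmem176b, Zfp683 and Il7r are above NK in all Eomes-negative points, and S1pr5, Klf2, Itga2 and Gzma are below NK in all points of both ILC1-like populations.

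Of 10 genes of residency and egress 6 were lower in Eomes-negative cells and none higher. S1pr5, a sphingosine 1-phosphate receptor by which NK cells leave tissues, stood at 20.4, 2.10, 0 and 1.30 CPM against 102, 95.6, 82.7 and 83.9 CPM (-4.31 ± 0.53, edgeR adjusted p = 1.45e-04). Its regulator Klf2 stood at 200, 81.8, 74.7 and 56.0 CPM against 670, 631, 441 and 480 CPM (-2.57 ± 0.29, adjusted p = 7.52e-05). S1pr1 (-2.37), Klf3 and Cd9 were also lower. Cd69, which holds S1PR1 inside the cell, stood at 129, 111, 112 and 116 CPM against 166, 123, 181 and 163 CPM (adjusted p = 0.420). Itga2, the integrin CD49b of conventional NK cells, stood at 51.0, 25.2, 11.2 and 14.3 CPM against 275, 301, 217 and 175 CPM (-3.37 ± 0.34, adjusted p = 3.58e-05). None of S1pr5, Klf2 and Itga2 overlapped between the populations. The transcription factor Myb (-3.90), the phosphodiesterase Pde2a (-3.02), the arsenite methyltransferase As3mt (-3.98) and Phactr3 (-3.23), a regulator of protein phosphatase 1, were lower as well.

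Cytotoxic genes moved in both directions. Of 18 tested, 3 were higher (Gzmf, Gzmc and Tnfsf10) and 8 lower. Granzyme A (Gzma) stood at 1233, 551, 321 and 589 CPM in Eomes-negative and 6639, 9352, 7163 and 5145 CPM in conventional NK cells (-3.43 ± 0.39, edgeR adjusted p = 7.52e-05), and perforin (Prf1) at 601, 551, 381 and 710 against 1715, 1898, 1690 and 1534 CPM (-1.66 ± 0.28, adjusted p = 0.00167). Granzyme B (Gzmb, -2.47), Nkg7 (-1.10), Fas ligand (Fasl, -0.96) and the granzyme inhibitors Serpinb9, Serpinb9b and Serpinb6b were lower. Gzmf was called on few cells (4.07, adjusted p = 0.0452, 22 cells with a UMI), and the populations overlapped. Granzyme C was higher throughout, at 16759, 16853, 17009 and 18077 CPM against 3185, 1675, 4122 and 7891 CPM (2.14 ± 0.35, adjusted p = 0.00149). Gzmc (chr14:56231441-56234656, minus strand) lies in a cluster with Gzmd, Gzme, Gzmf and Gzmg, which are close copies, so that the share of each in the probe counts is uncertain.

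Inhibitory receptors that differed were mostly higher. Of 17 tested 6 were higher and 2 lower, with a median log2 fold change of 0.75. PD-1 (Pdcd1, chr1:94038305-94052553, minus strand) stood at 136, 560, 500 and 599 CPM in Eomes-negative, 27.7, 61.5, 66.3 and 279 CPM in Eomes-positive and 33.5, 0, 6.12 and 54.4 CPM in conventional NK cells. Eomes-negative cells were above conventional NK cells in every library (4.27 ± 0.63, edgeR adjusted p = 7.21e-04), and their UMIs came from 85 cells. Lag3 stood at 200, 235, 306 and 251 CPM against 42.3, 31.4, 94.9 and 109 CPM (1.90 ± 0.31, adjusted p = 0.00158). Ctla4, the gene that is humanized in these mice, was low and higher in these cells (34.0, 31.4, 44.8 and 66.4 CPM against 5.29, 7.13, 24.5 and 20.2 CPM, 1.73), and which part of it the probes read is not given in the sources used here. TIM-3 (Havcr2, 1.60), Cd160 and Cd96 (1.06), a receptor of the nectin-like ligand CD155, were higher too. Cd226, the activating receptor of the same ligand, was higher and the costimulatory receptor Cd27 lower among 14 activating receptors and adaptors (3.22% of all genes were higher and 2.93% lower), with Cd226 at 384, 308, 370 and 276 CPM against 88.2, 57.1, 126 and 74.5 CPM (1.98 ± 0.26, adjusted p = 3.27e-04).

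Of the Ly49 receptors, a family with inhibitory and activating members, Klra3, Klra4, Klra6, Klra7 and Klra8 were lower. Klra2 (1.58, edgeR adjusted p = 0.0619) and Klra5 (1.49, adjusted p = 0.120) did not pass. The list of activating receptors and adaptors above held no Ly49 gene. Klra4 stood at 105, 46.1, 3.73 and 9.11 CPM against 875, 917, 741 and 790 CPM (-4.57 ± 0.48, edgeR adjusted p = 4.87e-05), Klra8 at 30.6, 52.4, 3.73 and 40.4 against 593, 668, 542 and 486 CPM (-4.12 ± 0.40) and Klra7 at 37.4, 56.6, 52.3 and 26.0 against 258, 297, 355 and 303 CPM (-2.90 ± 0.32). No sum of Eomes-negative cells reached one of conventional NK cells in Klra4, Klra8 or Klra7. The Klra genes are near copies of each other, so that the single members are uncertain.

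Of 11 cytokines and chemokines 3 were higher and 4 lower. Lymphotoxin α (Lta), a ligand in lymphoid tissue formation, stood at 425, 243, 153 and 117 CPM against 54.7, 20.0, 33.7 and 51.2 CPM (2.47 ± 0.32, edgeR adjusted p = 2.88e-04), and Csf2 (GM-CSF, 1.88) and Ltb were higher as well. Interferon-γ (Ifng) was lower, at 245, 103, 89.6 and 49.5 CPM against 452, 529, 401 and 275 CPM (-1.95 ± 0.32, adjusted p = 0.00157). The chemokines Ccl5 (-3.44), Ccl3 (-2.38) and Ccl4 (-2.22) were also lower. Among 17 cytokine receptors, Il7r, Il2ra (1.72) and Il21r were higher and Il12rb2 (-1.09) and Il10ra lower. T-bet (Tbx21), which both lineages need, stood at 489, 522, 414 and 398 CPM against 478, 598, 395 and 407 CPM (-0.05 ± 0.27, adjusted p = 0.958). Of 22 transcription factors Zfp683, Ikzf2 and Rora (2.23), the last shared with ILC2s, were higher, and Nr4a2 and Irf8 lower.

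Other cell types were checked in the same cells. Of 9 ILC3 markers only Kit was tested, and it was higher (279, 325, 433 and 471 CPM against 72.3, 69.9, 171 and 162 CPM, 1.72), while Il22, Il17a and Il17f had no UMI in any library. Of 11 macrophage markers Cd68 was higher and none lower, and the 16 macrophage genes held 3384, 1585, 1650 and 5741 CPM in sum, against 2618, 832, 842 and 2118 CPM in conventional NK cells. Cd163, a member of this list, had no UMI in either population, which does not show that macrophage RNA was absent, since the sums come from other members. Among all 557 ILC1-like cells 9 had more than 2 UMIs of mast cell genes and 40 of neutrophil genes. With the 88 Eomes-negative cells that had no UMI of 4 macrophage genes (C1qa, C1qb, C1qc and Csf1r) and at most 2 each of mast cell and neutrophil genes, and the 277 conventional NK cells under the same limits, 522 genes were called. The number of genes called moved with single libraries: 238 were called without isotype control, 146 without single antibody A, 707 without single antibody B and 254 without the combination. Drawn down to equal depth, with cells assigned anew by the UMIs left, 340 were called, and with cells that had no Cd3 UMI 953.

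Eomes-positive ILC1-like cells were compared with the same conventional NK sums, so that the 2 comparisons share them. Of 8422 genes 412 were higher (4.89%) and 411 lower (4.88%). Of 12 ILC1 markers 7 were higher and none lower, with a median log2 fold change of 1.08 against 0.01 over all genes. Of 15 conventional NK markers 8 were lower and 1 higher (Emilin2, an extracellular matrix gene that macrophages also express), with a median of -1.62.

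Of the named genes Gzmg and Gzmf were furthest above conventional NK cells. Gzmg stood at 2176, 158, 361 and 2150 CPM in Eomes-positive and 0, 5.71, 12.2 and 93.2 CPM in conventional NK cells (5.77 ± 0.61, edgeR adjusted p = 1.39e-04), and Gzmf at 3107, 605, 37.0 and 7102 against 0, 0, 15.3 and 497 CPM (5.53 ± 1.15, adjusted p = 0.00764). These levels varied widely between libraries and rested on few cells, since 55 of the 355 cells held all UMIs of Gzmg and 45 those of Gzmf. Gzmd (3250, 1419, 1456 and 7309 against 7.06, 49.9, 674 and 1148 CPM, 3.57) and Gzme (1304, 399, 770 and 2222 against 3.53, 18.5, 462 and 337 CPM, 3.02) were higher too. Gzmc was more even, at 22622, 14916, 20066 and 27973 against 3185, 1675, 4122 and 7891 CPM (2.45 ± 0.35, adjusted p = 7.66e-04). In all, 7 of 18 cytotoxic genes were higher and 4 lower. Granzyme A was lower (1358, 2324, 1564 and 618 against 6639, 9352, 7163 and 5145 CPM, -2.32 ± 0.37, adjusted p = 0.00144), with Fasl (-1.03), Nkg7 (-0.96) and Serpinb9b (-1.64). Perforin stood at 1655, 1038, 1421 and 1703 CPM and its difference did not pass (-0.22 ± 0.27, adjusted p = 0.651).

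Of 10 genes of residency and egress 6 were lower in Eomes-positive cells and none higher, and of 11 cytokines and chemokines 3 were higher and 4 lower. S1pr5 stood at 18.0, 12.1, 3.08 and 9.75 CPM (-3.09 ± 0.39, edgeR adjusted p = 3.22e-04), Klf2 at 165, 139, 114 and 88.9 CPM (-2.14 ± 0.27) and Itga2 at 51.3, 55.9, 44.7 and 18.4 CPM (-2.58 ± 0.28). All 4 values of each lay below those of conventional NK cells. Ccl5 stood at 954, 1412, 767 and 702 against 7938, 9842, 8954 and 9158 CPM (-3.31 ± 0.37, adjusted p = 1.39e-04), and Ccl4 (-3.12), Ccl3 (-2.54) and Ifng (-2.16) were lower. Csf2 (2.80) and Lta (2.46) were higher. Of 17 cytokine receptors 3 were higher (Il7r, Il2ra and Ifngr2) and 5 lower. Among the lower were receptors for IL-12 (Il12rb2, -1.34) and IL-18 (Il18r1, -1.01, and Il18rap, -1.27), which drive interferon-γ in these lineages. Heatr9 (-3.37), Rap1gap2 (-2.21), Pde2a (-2.37) and As3mt (-2.25) were also among the lowest. Of 17 inhibitory receptors 2 were higher, Havcr2 (1.96) and Ctla4 (1.28), and 1 lower, Klra3 (-1.57), and Pdcd1 did not pass (2.04 ± 0.65, adjusted p = 0.0614).

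Of 15 genes of glycolysis and hypoxia 13 were higher in Eomes-positive cells than in conventional NK cells and none lower, with a median log2 fold change of 1.05, and 4 of 15 were higher in Eomes-negative cells. The count in Eomes-positive cells was 2 of 11 at equal depth, where cells were also fewer and assigned anew by the UMIs left. It was 5 of 14 with cells chosen by an Itga1 UMI (with or without Cd200r1) and 4 of 15 without single antibody A. In the choice by Itga1, Eomes-positive cells with Cd200r1 alone counted as conventional NK cells. In the main comparison 10 of 11 macrophage markers were higher in the same Eomes-positive cells. Phosphoglycerate kinase (Pgk1) stood at 313, 248, 282 and 364 CPM in Eomes-positive, 173, 201, 209 and 220 CPM in Eomes-negative and 88.2, 74.2, 79.6 and 155 CPM in conventional NK cells (1.61 ± 0.19 for Eomes-positive cells, edgeR adjusted p = 1.79e-04). Lactate dehydrogenase A (Ldha) stood at 837, 845, 849 and 877 CPM in Eomes-positive, 550, 654, 732 and 740 CPM in Eomes-negative and 438, 331, 374 and 530 CPM in conventional NK cells (1.04 ± 0.15, adjusted p = 8.30e-04). The lactate exporter Slc16a3 stood at 168, 169, 122 and 189 CPM in Eomes-positive, 47.6, 107, 67.2 and 161 CPM in Eomes-negative and 72.3, 21.4, 27.6 and 63.7 CPM in conventional NK cells (1.83 ± 0.36, adjusted p = 0.00548). In each of the 3 genes the Eomes-positive values lay above all values of conventional NK cells. The oxygen-sensing hydroxylase Egln3 (2.37), the mitophagy gene Bnip3 (2.26), hexokinase 2 (Hk2, 1.76), the glucose transporter Slc2a1 (1.03), Vegfa (0.70) and Hif1a (0.74), the transcription factor of this response, were higher as well.

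HIF-1 binds the letters ACGTG, so these were searched on both strands (as ACGTG and CACGT, which overlap in CACGTG) in the 250 bases before each gene's RefSeq start on GRCm38.p6. They were present in 9 of the 13 genes called higher (69.2%), in 9 of 17 windows of the whole list (52.9%) and in 16.6% of all 32851 windows. The list was drawn up as genes of glycolysis and hypoxia, so that its higher share can follow from the choice of genes. Whether these letters play a part in the levels of these cells was not tested. The windows of Pgk1 (chrX:106186850-106187099, plus strand), Ldha (chr7:46845554-46845803, plus strand) and Slc16a3 (chr11:120948817-120949066, plus strand) are shown because each held the letters more than once, with the matches in capitals. A match describes the sequence and shows no binding.
Pgk1: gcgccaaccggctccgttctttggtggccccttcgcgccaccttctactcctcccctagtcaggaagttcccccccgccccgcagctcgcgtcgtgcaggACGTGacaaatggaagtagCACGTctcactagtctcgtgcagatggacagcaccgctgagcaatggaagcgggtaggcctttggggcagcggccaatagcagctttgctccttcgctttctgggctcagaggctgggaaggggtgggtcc
Ldha: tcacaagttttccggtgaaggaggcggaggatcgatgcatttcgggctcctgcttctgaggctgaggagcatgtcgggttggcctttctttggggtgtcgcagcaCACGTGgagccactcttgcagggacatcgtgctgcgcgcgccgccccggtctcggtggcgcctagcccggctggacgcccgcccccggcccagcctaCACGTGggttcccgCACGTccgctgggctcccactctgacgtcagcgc
Slc16a3: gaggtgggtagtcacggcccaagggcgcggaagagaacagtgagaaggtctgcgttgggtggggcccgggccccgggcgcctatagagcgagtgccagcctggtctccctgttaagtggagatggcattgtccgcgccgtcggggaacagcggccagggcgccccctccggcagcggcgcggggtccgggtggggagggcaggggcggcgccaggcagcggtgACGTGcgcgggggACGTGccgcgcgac

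**Figure D3:**
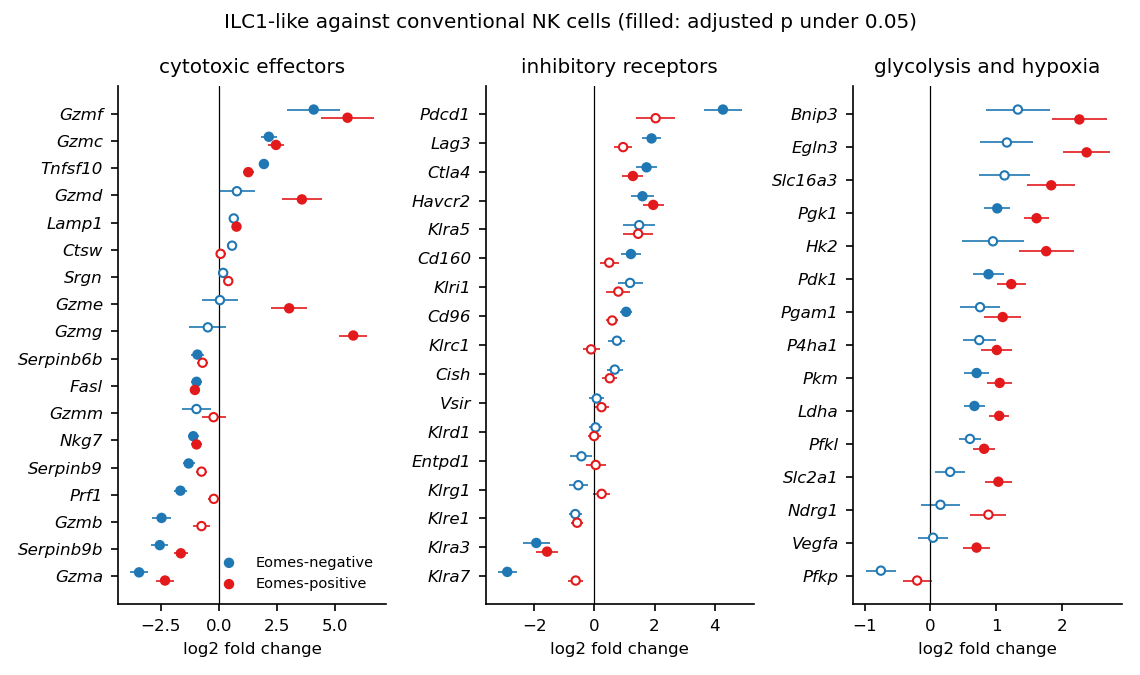
Log2 fold changes against conventional NK cells of cytotoxic effectors, inhibitory receptors, and glycolysis and hypoxia genes in Eomes-negative (blue) and Eomes-positive (red) ILC1-like cells, with standard errors over 4 libraries. Filled points had an adjusted p under 0.05. Pdcd1 is furthest right among the receptors in Eomes-negative cells, and 13 of 15 red points are filled in the right panel.

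Macrophage genes were higher in Eomes-positive cells as well. Of 11 macrophage markers tested 10 were higher than in conventional NK cells, with a median log2 fold change of 1.73. Spp1 stood at 888, 655, 1017 and 3115 against 191, 58.5, 257 and 582 CPM and Lyz2 at 1118, 1005, 693 and 633 against 626, 79.9, 79.6 and 303 CPM. The most abundant of the list in Eomes-positive cells was Ctss in isotype control (1217 CPM), Lyz2 in single antibody A and Spp1 in the other libraries. The sum of the 16 genes was 5398, 3967, 4729 and 6627 CPM in Eomes-positive cells and 2618, 832, 842 and 2118 CPM in conventional NK cells, and Cd163 had no UMI. The median per cell was 947 CPM in the 337 Eomes-positive cells with Itga1, 12104 CPM in the 18 with Cd200r1 alone and 765 CPM in conventional NK cells. Several leading genes of this comparison are known from activated macrophages, among them Mmp12 (4.56), Nos2 (4.52), Ccl7 (4.10), Slc7a2 (3.54), Ccl2 (3.50) and Ifi205 (3.24). Of 485 Ccl7 UMIs in Eomes-positive cells, 367 came from 1 cell.

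These counts depended on which cells were kept and on which cells they were compared with. With cells chosen by an Itga1 UMI, with or without Cd200r1, 1 of 11 macrophage markers was higher in Eomes-positive cells and 473 genes were called in all. In that setting the 18 Eomes-positive cells with Cd200r1 alone counted as conventional NK cells, so that both sides of the comparison changed. The values of Nos2, Ccl7, Slc7a2, Ccl2 and Ifi205 then turned below 0. With only cells that had no macrophage UMI and little RNA of mast cells or neutrophils, 8 of 12 glycolysis and hypoxia genes were higher, while of 5 macrophage markers tested 1 was higher and 2 lower. At equal depth 85 genes were called in all. There cells were assigned anew by the UMIs left, so that 27, 44, 19 and 24 Eomes-positive cells remained. Depth was therefore not the only change. Without isotype control 314 genes were called, without single antibody A 123, without single antibody B 1308 and without the combination 266.

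Eomes-negative and Eomes-positive ILC1-like cells, compared with each other, differed in few genes. Of 8422 genes 10 were higher (0.119%) and 13 lower (0.154%) in Eomes-negative cells. Higher were Zfp683, Tmem176a, Tmem176b, Ramp1, Ikzf2, Adgrg5, Cd200r4, Cd226, Pag1 and Jaml. Lower were Gzmg, Sh2d1b2, Klra6, Tmsb15a, Klra4, Cd55, Khdc1a, Klra8, Klra7, Fcrl6, Prf1, Pmepa1 and Sh2d1a. Without isotype control 3 genes were called, without single antibody A 3, without the combination 4 and without single antibody B 73.

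Of the genes higher in Eomes-negative cells, Zfp683 stood at 105, 136, 127 and 26.0 CPM against 11.1, 14.0, 15.4 and 8.03 CPM in Eomes-positive cells (2.79 ± 0.43, edgeR adjusted p = 0.0147), and Tmem176b at 309, 283, 325 and 266 against 56.8, 86.6, 109 and 75.7 CPM (1.83 ± 0.32, adjusted p = 0.0266). Neither overlapped. Ramp1, a part of the receptor for the neuropeptide CGRP, stood at 109, 138, 134 and 100 against 44.4, 47.5, 47.8 and 14.3 CPM (1.75 ± 0.34, adjusted p = 0.0357), and the adhesion receptor Adgrg5 at 255, 197, 153 and 113 against 69.3, 56.8, 66.3 and 33.8 CPM (1.64). In conventional NK cells Ramp1 stood at 38.8, 39.9, 36.7 and 12.4 CPM and Adgrg5 at 31.8, 58.5, 45.9 and 51.2 CPM. Cd200r4, an activating receptor of the family of Cd200r1, was higher (1.58), as were Cd226 (1.25), the adaptor Pag1 (1.19) and the adhesion molecule Jaml (1.15).

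Of the genes lower in Eomes-negative cells, perforin stood at 601, 551, 381 and 710 CPM against 1655, 1038, 1421 and 1703 CPM (-1.44 ± 0.28, edgeR adjusted p = 0.0357), with no overlap. Gzmg was nearly absent from Eomes-negative cells, at 0, 6.29, 0 and 59.9 against 2176, 158, 361 and 2150 CPM (-6.25 ± 0.65, adjusted p = 4.31e-04). Sh2d1b2, an adaptor of SLAM receptors, stood at 17.0, 2.10, 0 and 3.91 against 83.2, 46.6, 70.9 and 127 CPM (-4.13 ± 0.52, adjusted p = 0.00251). It was also higher in Eomes-positive cells than in conventional NK cells (1.52, adjusted p = 0.0154), as were the complement regulator Cd55 (1.30, adjusted p = 0.0442) and the MHC class II receptor Fcrl6 (1.16, adjusted p = 0.0385). Klra4 (-2.81), Klra8 (-2.50) and Klra7 (-2.28) were lower in Eomes-negative cells. For Klra4 and Klra8 the Eomes-positive values stood between those of the other populations with no overlap. Granzyme B (669, 746, 93.3 and 927 against 1719, 1848, 1938 and 1728 CPM, adjusted p = 0.117) and Pdcd1 (adjusted p = 0.0921) did not pass.

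Across treatments only the values of 4 libraries can be given. A gene was counted where its level over all 557 ILC1-like cells differed from isotype control at least 2-fold, with 50 CPM or more in either library. Single antibody A had 46 genes higher (0.842% of 5465) and 57 lower (1.04%), single antibody B 71 higher (1.30% of 5450) and 77 lower (1.41%), and the combination 60 higher (1.11% of 5386) and 56 lower (1.04%). The 103, 148 and 116 genes in all were 53, 58 and 66 at 100 CPM or more, and 238, 410 and 285 with the cells under the limits on macrophage, mast cell and neutrophil UMIs. No p-value was computed, and a ratio to isotype control is followed by its exact 95% interval, which covers counting error only. Many of the largest ratios rested on 1 or a few cells. Markers of other cell types moved as well. With single antibody A 2 of 2 neutrophil markers compared (S100a8 and S100a9) were counted higher and 2 of 2 mast cell markers lower. With B 4 of 4 mast cell markers were counted higher, and with the combination 1 of 2 lower. Of 9 macrophage markers 2 were lower and none higher with A, and 2 were higher and 1 lower with the combination.

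Pdcd1 was at least 2-fold above isotype control in all 3 antibody libraries. Over all ILC1-like cells it stood at 59.1, 215, 193 and 377 CPM. The ratio of combination to isotype control was 6.38 (95% interval 4.91 to 8.42), and the UMIs came from 11 cells of isotype control and 73 of the combination. In Eomes-negative cells the ratio was 4.41 (95% interval 3.19 to 6.25) and the values of the 3 antibody libraries lay close together. In Eomes-positive cells it was 10.1 (95% interval 6.44 to 16.6), and the combination stood apart from both single antibodies. Pdcd1 was the 1 gene of the inhibitory receptor list that was counted, of 13, 13 and 14 compared.

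**Figure D4:**
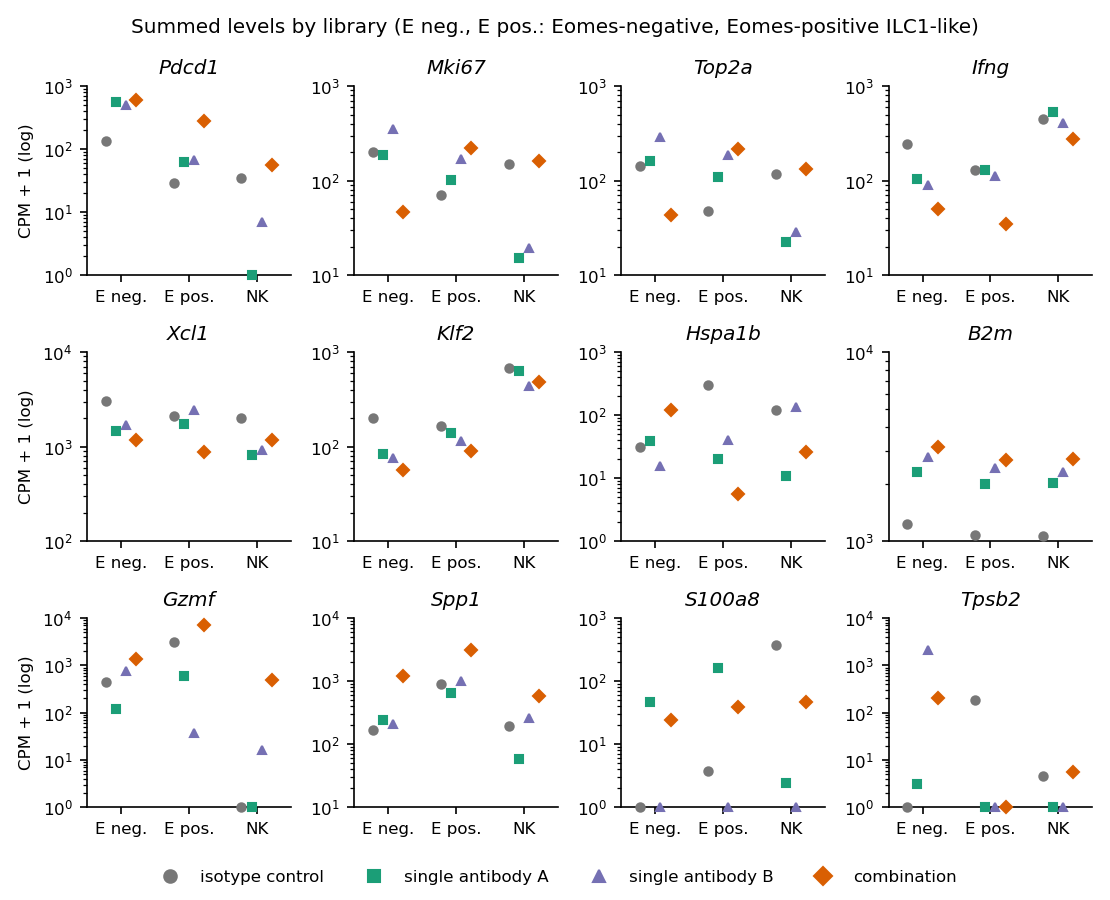
Levels (CPM plus 1, log axis) of 12 genes in Eomes-negative (E neg.) and Eomes-positive (E pos.) ILC1-like cells and conventional NK cells (NK), 1 point per library, with no replicates. Ifng and Klf2 are lowest in the combination in both ILC1-like populations, Mki67 and Top2a are lowest with the combination in Eomes-negative and highest in Eomes-positive cells (Top2a in the former rests on 1 cell of isotype control), and Tpsb2 rests on 1 cell in each high point.

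Of 11 cytokines and chemokines 3 were counted lower with the combination and none higher (Ifng, Xcl1 and Lta), and of 16 cytotoxic genes 1 was lower (Gzma) and 2 higher (Gzmd and Gzmf). Ifng stood at 161, 120, 105 and 38.6 CPM over all ILC1-like cells, a ratio of combination to isotype control of 0.239 (95% interval 0.184 to 0.309), and the log2 ratio was -5.01 with the cells under the limits on macrophage, mast cell and neutrophil UMIs given above. It was lowest with the combination in Eomes-negative (245, 103, 89.6 and 49.5 CPM) and Eomes-positive cells (128, 128, 111 and 33.8 CPM) and in conventional NK cells (452, 529, 401 and 275 CPM). The chemokine Xcl1, which draws cross-presenting dendritic cells, stood at 2375, 1637, 2213 and 971 CPM (ratio 0.409, 0.386 to 0.432), Lta at 340, 266, 122 and 157 CPM and Gzma at 1322, 1779, 1201 and 609 CPM. Of 13 conventional NK markers 4 were counted lower, among them Klf2 (175, 121, 103 and 78.8 CPM, ratio 0.450, 0.366 to 0.554) and Itga2 (51.2, 46.4, 34.9 and 17.1 CPM). Of 19 transcription factors 4 were counted lower, among them Ahr (114, 85.1, 105 and 35.0 CPM) and Tox (51.2, 45.8, 32.7 and 20.7 CPM), and none higher. These genes were lowest in the combination with the exception of Lta, which was lowest with single antibody B. Each rested on at least 27 cells in every library except Itga2, with 23 cells in single antibody B, and Tox, with 24. The median over all genes compared moved by -0.04 on the log2 scale.

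B2m followed the library in all 3 populations. B2m, the light chain of MHC class I, stood at 1240, 2317, 2796 and 3141 CPM in Eomes-negative, 1082, 2002, 2441 and 2699 CPM in Eomes-positive and 1066, 2036, 2330 and 2724 CPM in conventional NK cells. The ratio of combination to isotype control was 2.51 (95% interval 2.36 to 2.68) in ILC1-like cells and 2.56 (95% interval 2.33 to 2.81) in conventional NK cells. Of the interferon-γ response list 1 of 15 genes was counted higher with single antibody A, 3 of 16 with B and 1 of 15 with the combination.

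Some cell cycle genes were counted higher in each antibody library over all ILC1-like cells. Of the list, 5 of 12 genes were counted higher with single antibody A, 9 of 16 with B and 5 of 14 with the combination, and none lower, with median log2 ratios of 0.76, 1.04 and 0.58 against 0.03, -0.01 and -0.04 over all genes. Within the populations the combination had 0 of 13 higher and 8 lower in Eomes-negative cells, where 4.11% of all genes compared were higher and 2.81% lower, and 9 of 16 higher and none lower in Eomes-positive cells, where 1.60% were higher and 1.71% lower. Top2a, the topoisomerase of dividing cells, stood at 143, 161, 291 and 43.0 CPM in Eomes-negative and 47.1, 107, 186 and 217 CPM in Eomes-positive cells, and Mki67 at 200, 187, 355 and 45.6 CPM in Eomes-negative and 69.3, 102, 168 and 220 CPM in Eomes-positive cells. With the combination both genes were lowest in Eomes-negative and highest in Eomes-positive cells, but the Eomes-negative values of isotype control rested on single cells. Summed over the list the levels were 1787, 2145, 3815 and 790 CPM in Eomes-negative and 1163, 1985, 1985 and 2287 CPM in Eomes-positive cells. In Eomes-negative cells of isotype control, 40 of 59 Mki67 UMIs, 34 of 42 Top2a UMIs and 44 of 46 Rrm2 UMIs came from 1 cell each. Without the highest cell of each library Top2a in Eomes-negative cells turned, to 36.5 CPM with the combination against 27.2 CPM in isotype control, while Mki67 was at 19.5 against 64.5 CPM.

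Other genes named by the size of the ratio were mostly those of macrophages or of few cells. With the combination Inhba, a subunit of activin, had 251 UMIs against 1, a ratio of 102 (95% interval 18.1 to 4025), and 186 of these came from 1 cell. Chil3 (ratio 12.1, 9.16 to 16.3), Nos2 (8.76, 5.96 to 13.4), Acod1 (8.66, 4.87 to 17.0), Ass1 (5.24, 3.64 to 7.82) and Cxcl9 (4.94, 3.43 to 7.38) are genes of activated macrophages, and their UMIs came from 24, 28, 20, 49 and 68 cells. The metallothionein Mt2 (4.72, 3.86 to 5.83), the glycosyltransferase Galnt18 (6.50, 3.72 to 12.4) and the junction protein Tjp1 (6.42, 3.16 to 15.2) were also higher. Mt2 came from 53 cells, and its log2 ratio moved from 2.24 to 3.71 with no Cd3 UMI, 4.21 under the limits on macrophage, mast cell and neutrophil UMIs and 3.03 without the highest cell. Of 1527 Chil3 UMIs, 657 came from 1 cell. For Galnt18 and Tjp1 no cell held more than 17 UMIs, in 46 and 58 cells. Gzmf had a ratio of 2.29 (95% interval 2.19 to 2.39) and Gzmd of 2.35 (95% interval 2.25 to 2.46) with the combination. Both genes were lower than isotype control with single antibody A and with B (2335, 456, 245 and 5339 CPM of Gzmf and 2344, 1103, 1175 and 5516 CPM of Gzmd).

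Of 15 stress and immediate early genes 6, 5 and 4 were counted lower in single antibody A, B and the combination than in isotype control and none higher, and median log2 ratios of -0.72, -0.59 and -0.79. Fos, an immediate early transcription factor, stood at 601, 266, 326 and 289 CPM and the chaperone Dnajb1 at 221, 99.3, 100 and 98.7 CPM. The genes lowest with the combination were, beside Ifng and Ccl2 (0.260, 0.173 to 0.386), the heat shock genes Hspa1b (0.181, 0.141 to 0.231) and Hspa1a (0.297, 0.218 to 0.405) and Rgs10 (0.291, 0.213 to 0.396), a regulator of G protein signaling. Of 221 Hspa1b UMIs in isotype control 112 came from 1 cell of the Eomes-positive cells. In Eomes-negative cells the combination was above isotype control in Hspa1a (ratio 6.13), Hspa1b (3.88) and the stress transcription factor Atf3 (2.55), the first and second of these from 5 cells each. With the cells under the limits on macrophage, mast cell and neutrophil UMIs the log2 ratio was -1.66 for Hspa1b and -0.27 for Hspa1a, the second no longer 2-fold. Rgs10 stood at 101, 49.7, 79.6 and 29.5 CPM and was spread over 37 cells of isotype control and 36 of the combination. Il23a, Il4i1 and the mast cell proteases Mcpt1, Mcpt2 and Tpsab1 rested on single cells. Of 281 Il23a UMIs in isotype control 280 came from 1 cell, and of 60 Il4i1 UMIs 58. All 561 Mcpt2 UMIs of isotype control and 275 of 277 of the combination were in 1 cell each, so that these ratios describe single cells and not the libraries.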

How the data were processed

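Cells were sorted as live CD45+ cells, fixed and read with gene probes (10x Flex). The authors deposited 1 matrix per library of whole-number UMI counts for 19059 genes, not normalized and already filtered to cells. The processing notes name Cell Ranger 7.0.0 and the file headers 7.2.0, on mm10 (GRCm38). The filter of cells and the gate are given above, and no cell was removed as a doublet in the values reported (28 of the 557 were among the 5% of cells with the highest Scrublet scores of their library).

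From these counts, UMIs were summed over the cells of each library and of 4 populations (with or without an Itga1 or Cd200r1 UMI, with or without an Eomes UMI). The 16 sums were fitted with edgeR 4.0.16 in R 4.3.3 (filterByExpr, TMM, quasi-likelihood test, library as a block, Benjamini-Hochberg adjustment over all genes tested, threshold 0.05). Both sums of a library come from the same pooled tumors, and the p-values measure the spread over 4 libraries under different treatments. Populations were chosen by genes of the same cells and differ in depth, so that genes linked to the selecting genes or to depth can differ by the choice itself. The selecting genes and label markers were not tested. Log2 fold changes are given with their standard error.

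Treatments were compared as ratios of CPM with exact conditional 95% intervals. Shares have exact Clopper-Pearson intervals and ratios of shares approximate 95% intervals on the log scale. All cover counting error only, and where 1 library had 0 UMIs a floor of 3 UMIs stood in. Equal depth means that each cell was drawn down to 2259 UMIs, the 10th percentile over gated cells, as a mean over 100 draws for shares. Shallower cells were left out (1120 of 1245 gated cells remained), and the rest were assigned to populations by the UMIs left. Named genes were the 10 highest and 10 lowest fold changes among called genes with a mean of 50 CPM or more in the higher population and 1 direction in all 4 libraries (for treatments, the 10 highest and lowest ratios of the combination whose interval excluded 1), and members of gene lists, some of which are not reported here. The members and lists were chosen with earlier results of these data known. On simulated counts for Eomes-negative against conventional NK cells (8440 genes), 52% of genes changed 2-fold and 97% of those changed 4-fold were recovered, with 5 false calls. The spread of these counts was set by hand and not estimated from the data. The simulation held no choice of cells by depth and no genes resting on single cells, so that its rates may not hold for the data. Python 3.11.15, numpy 2.4.6, scipy 1.17.1, pandas 2.3.3 and scanpy 1.11.5 were used, and DESeq2 1.42.0 as an alternative. Promoter and gene coordinates are from RefSeq (GRCm38.p6) and GENCODE.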

Additional observations from a re-analysis of the deposited data

Results flagged for a closer look

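Several genes went opposite ways with the combination in the ILC1-like populations. Values are ratios of combination to isotype control, and the difference between the populations was not tested, since each group was 1 library.

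The 6 cell cycle genes given here, of 13 compared in Eomes-negative and 16 in Eomes-positive cells, were picked because they were counted in opposite directions. Mki67 had a ratio of 0.227 in Eomes-negative cells (35 against 59 UMIs) and 3.17 in Eomes-positive cells (383 against 50 UMIs, in 31 and 17 cells). Top2a had 0.301 and 4.60, Ccna2 0.244 and 11.3, Rrm2 0.0417 and 9.79, Tpx2 0.256 and 3.56, and Tyms 0.180 and 2.11. In Eomes-negative cells of isotype control the cell with the most UMIs held 40 of 59 of Mki67, 34 of 42 of Top2a, 20 of 22 of Ccna2, 44 of 46 of Rrm2, 11 of 21 of Tpx2 and 10 of 17 of Tyms. Without the highest cell of each library, an alternative chosen after seeing the data, the Eomes-negative ratio turned to 1.34 for Top2a and was 0.303 for Mki67, 0.575 for Ccna2 and Rrm2, 0.345 for Tpx2 and 0.383 for Tyms.

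Of 15 stress and immediate early genes 3 were counted higher and none lower in Eomes-negative cells, and 9 lower and none higher in Eomes-positive cells (over all genes 4.11% higher and 2.81% lower in Eomes-negative, 1.60% and 1.71% in Eomes-positive cells). The 3 counted in opposite directions were Hspa1a, Hspa1b and Atf3. Hspa1a had a ratio of 6.13 in Eomes-negative and 0.0464 in Eomes-positive cells, Hspa1b 3.88 and 0.0156, and the stress transcription factor Atf3 2.55 and 0.377. The Eomes-negative values with the combination came from 5 cells each (64 Hspa1a UMIs, 26 of them in 1 cell, against 4, and 91 Hspa1b UMIs, 33 of them in 1 cell, against 9). In Eomes-positive cells of isotype control, 1 cell held 112 of 212 Hspa1b UMIs and 62 of 98 of Hspa1a. Atf3 was spread over 16 and 5 Eomes-negative and 21 and 16 Eomes-positive cells of the combination and isotype control.

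The mast cell proteases rested on 1 cell per library. Mcpt2 was at least 35.1-fold higher with the combination in Eomes-negative cells (275 UMIs of 1 cell against 0) and 0.0015-fold in Eomes-positive cells (2 against 561 UMIs). Tpsab1 was at least 9.20-fold higher in Eomes-negative cells (72 UMIs of 1 cell against 0) and at most 0.0099-fold in Eomes-positive cells (0 against 125 UMIs of 1 cell).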

How the results depend on the processing

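Of the values of genes named between populations, taken over all alternatives, 796 kept direction and call, 117 kept the direction and lost the call and 6 turned. The 518 genes called between Eomes-negative and conventional NK cells became 340 at equal depth, 953 with no Cd3 UMI and 977 when each gene was summed without its highest cell, and 146 to 707 with each library left out. The 823 for Eomes-positive cells became 85 at equal depth and 473 with cells chosen by an Itga1 UMI (with or without Cd200r1). In the choice by Itga1, Eomes-positive cells with Cd200r1 alone counted as conventional NK cells. The 823 became 1548 with no Cd3 UMI, 1742 without the highest cell, and 123 to 1308 with each library left out. The 23 between the ILC1-like populations became 36 with DESeq2, 40 without a filter on low counts, 11 with the choice by an Itga1 UMI and 71 with no Cd3 UMI. They became 41 without the highest doublet scores, 131 without the highest cell, and 3 to 73 with each library left out. Under limits on UMIs of other cells (no UMI of 4 macrophage genes, at most 2 each of mast cell and neutrophil genes) 41 were called. Without the replicate block (library not in the model) 471, 723 and 20 genes were called. Leaving out isotype control, single antibody A or the combination lowered all 3 counts and leaving out B raised them, and the cause was not tested. At equal depth fewer genes were tested (4589) and cells were assigned anew by the UMIs left. Eomes-positive ILC1-like cells were then fewer (27, 44, 19 and 24 by library), so that these counts do not show the effect of depth alone.

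In Eomes-positive cells Mmp12 turned at equal depth (-0.91), and with cells chosen by an Itga1 UMI Nos2 (-1.33), Ccl7 (-1.70), Slc7a2 (-1.40), Ccl2 (-0.33) and Ifi205 (-0.57) did, none with a call. With the choice by Itga1, Eomes-positive cells with Cd200r1 alone were among the conventional NK cells. The ratio of shares, combination to isotype control, became 1.64 of all cells and 0.836 at equal depth for Eomes-positive cells, and 1.75 of all cells, 1.59 with at least 2 UMIs of Itga1 and Cd200r1 and 1.17 at equal depth for both populations. The 103, 148 and 116 genes counted for single antibody A, B and the combination became 53, 58 and 66 at 100 CPM or more, and 238, 410 and 285 under the limits on UMIs of other cells, which left fewer cells (244 of 557). Over treatments the log2 ratio of Mcpt2 turned to 0.014 as a mean over cells and to 5.29 without the highest doublet scores, and that of Tpsab1 to 0.24 as a mean over cells, since both rested on 1 cell. Other ratios moved by more than 1.5 times (log2). Under the limits on UMIs of other cells Ifng became -5.01, Hspa1a -0.27, Hspa1b -1.66, Il4i1 -5.33 and Mt2 4.21. With no Cd3 UMI Chil3 became 4.19, Nos2 3.83, Cxcl9 2.89 and Mt2 3.71, and with macrophage UMIs under 0.1% Nos2 became 3.85. Without the highest doublet scores Chil3 became 5.31, Ass1 1.73 and Cxcl9 1.5, as a mean over cells Cxcl9 1.69 and Hspa1b -1.85, and without the highest cell Mt2 3.03. The alternatives under limits on UMIs of other cells and without the highest cell were chosen after seeing the data. Leaving out a library was not possible across treatments, which had 1 each. Single antibody B had the fewest Eomes-negative cells (28).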

Other observations

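Of 12 genes of the TGF-β response, which drives CD49a on NK cells, 3 were lower in each ILC1-like population than in conventional NK cells. Over all genes 2.93% were lower in Eomes-negative and 4.88% in Eomes-positive cells. In the list 9 and 8 genes were not called, and activity of the pathway was not tested. The signal transducer Smad3 stood at 57.8, 69.2, 63.5 and 52.1 CPM in Eomes-negative, 67.9, 84.8, 70.9 and 39.0 CPM in Eomes-positive and 229, 228, 184 and 199 CPM in conventional NK cells (log2 fold changes -1.82 ± 0.20 and -1.72 ± 0.18, edgeR adjusted p = 6.28e-05 and 1.39e-04). Pmepa1, a feedback inhibitor of this pathway, stood at 47.6, 67.1, 41.1 and 31.3 CPM in Eomes-negative, 74.8, 129, 122 and 64.2 CPM in Eomes-positive and 154, 195, 129 and 130 CPM in conventional NK cells, and Cd9, a tetraspanin, at 245, 124, 164 and 247 CPM in Eomes-negative, 258, 171, 219 and 174 CPM in Eomes-positive and 401, 380, 337 and 311 CPM in conventional NK cells. Rgs16, a regulator of G protein signaling, was higher in Eomes-positive cells (1.24, edgeR adjusted p = 0.00387). The list had a median of -0.26 in Eomes-negative and -0.20 in Eomes-positive cells, against 0.01 over all genes.

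Of 16 interferon-γ response genes 1 was called in each ILC1-like population, which is close to the share over all genes (3.22% higher and 2.93% lower in Eomes-negative, 4.89% and 4.88% in Eomes-positive cells). It was Ly6a (Sca-1), higher in Eomes-negative (1.28 ± 0.27, edgeR adjusted p = 0.00827) and Eomes-positive cells (1.19 ± 0.26, edgeR adjusted p = 0.0107). It stood at 292, 329, 881 and 699 CPM in Eomes-negative, 377, 390, 538 and 650 CPM in Eomes-positive and 286, 124, 251 and 203 CPM in conventional NK cells. Of 7 chemokine receptors tested Cxcr4, which holds cells in bone marrow, was lower in both (-1.90 and -1.82).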
